A study of Mus musculus with 9 samples.

Results

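Mitochondrial ribosomal proteins are the protein components of the ribosome inside mitochondria. All gene symbols that begin with Mrpl or Mrps followed by a digit were taken from the count tables, which gave 75 of 22637 symbols. Of these, 48 encode proteins of the large subunit and 26 of the small subunit, and 1, Mrps36, is now placed in the 2-oxoglutarate dehydrogenase complex and not in the ribosome. Mrps18a and Mrps30 were counted with the large subunit, where their proteins sit despite their names. All 75 had enough reads to be tested, so none was lost to the filter on low counts, and each had between 309 and 5954 counts in every library.

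The data are RNA-seq of whole kidney from mice of strain 129X1/SvJ at 9 weeks of age, in 9 libraries forming 3 groups of 3. Wild type mice (WT) had no treatment, Col4a3-/- mice received PBS (KO_PBS), and other Col4a3-/- mice received antimiR-21, which blocks miR-21, a microRNA (KO_antimiR21). Col4a3 codes for a chain of the type IV collagen of the glomerular filter, and mice without it develop the kidney disease of Alport syndrome. Because WT mice were not injected, genotype and injection cannot be told apart in the comparison of KO_PBS with WT, and the labels do not say whether each library came from an animal of its own. The p-values therefore speak only for the spread among these 9 samples, part of which may be technical.

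The mitochondrial ribosome translates only the few messages of the mitochondrial genome, all of which encode core subunits of the respiratory chain and the ATP synthase. Its own proteins are all encoded in the nucleus, made in the cytosol and imported. Some descend from bacterial ribosomal proteins, while others exist only in mitochondria. Tubule cells of the kidney, above all those of the proximal tubule, are rich in mitochondria because reabsorption of salts and nutrients is driven by ATP.

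Library totals ran from 26448275 to 31786624 expected counts. Col4a3 itself was at 257 to 371 CPM (counts scaled to a fixed library total after edgeR's TMM factors) in WT, 44.3 to 94.3 in KO_PBS and 70.6 to 138 in KO_antimiR21, so its reads were lower in all 6 knockout libraries but not absent. Reads of Y-linked genes marked 7 libraries as male and WT 1 and WT 3 as female. The deposited names carry a code, of unstated meaning, that reads L5 in KO_antimiR21 1 to 3 and in KO_PBS 3, and L4 in the others. Markers of proximal tubule were present in every library.

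Messages of the mitochondrial ribosome were lower in the kidney of PBS-treated knockout mice than in wild type. Of the 75 genes, 22 fell and 0 rose in KO_PBS against WT at an adjusted p under 0.05 in edgeR's quasi-likelihood test, and 72 had a fold change below 0. The median log2 fold change was -0.43, with the middle 50% of members between -0.49 and -0.28. Across all 17315 genes tested the median was -0.03, 52.28% had a fold change below 0, 9.85% fell and 14.6% rose. The shift was small for each gene, with a median standard error of 0.16, and it ran through nearly the whole list rather than through a few members.

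Summed over the 75 genes, the level was 3761, 4020 and 4350 CPM in WT 1 to 3. In KO_PBS 1 to 3 it was 3075, 3052 and 2941 CPM. In KO_antimiR21 1 to 3 it was 4075, 2884 and 3666 CPM. All 3 KO_PBS libraries lay below all 3 WT libraries, while the inhibitor group held one library below every KO_PBS library, one inside the WT range and one between the groups. For single genes, all KO_PBS libraries lay below all WT libraries in 56 of 75, against 20.5% of all genes tested.

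**Figure D1:**
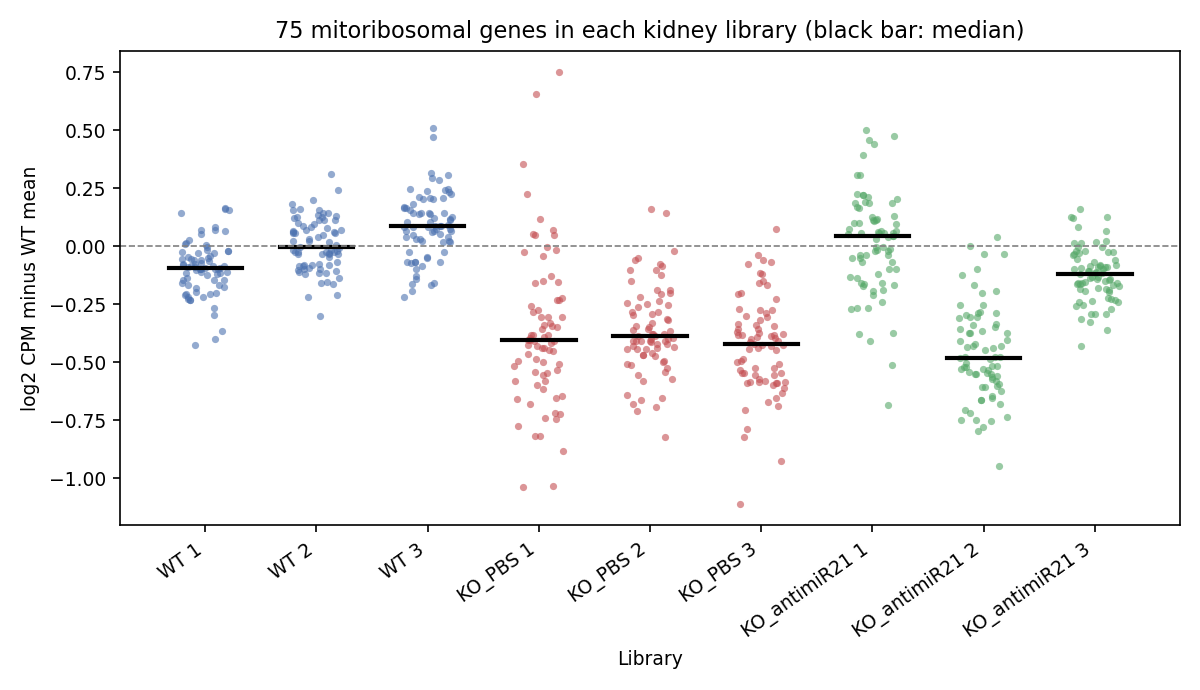
Each point is 1 of the 75 genes in 1 library, as its log2 CPM minus the mean of its log2 CPM in the 3 WT libraries, and black bars are medians over the genes. Medians lie at -0.41, -0.39 and -0.42 in the KO_PBS libraries, and at 0.04, -0.48 and -0.12 in KO_antimiR21 1, 2 and 3.

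Among the small-subunit proteins, Mrps6, Mrps21 and Mrps35 had the lowest fold changes. Mrps6, the homolog of bacterial S6, had 114, 144 and 217 CPM in the WT libraries, 86.7, 86.4 and 70.8 in KO_PBS, and 118, 90.6 and 125 in KO_antimiR21. WT and KO_PBS did not overlap, though WT 3 was far above the other WT libraries. Its log2 fold change in KO_PBS was -0.96 ± 0.24 (SE; edgeR adjusted p = 0.0202). Mrps6 shares exon sequence on the same strand with Slc5a3, an inositol transporter whose own log2 value was -1.55 ± 0.54 (adjusted p = 0.0689), so the split of reads between these 2 genes is uncertain.

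Mrps21, the homolog of bacterial S21, had 82.8, 87.5 and 95.9 CPM in WT, against 50.3, 55.3 and 46.6 in KO_PBS and 101, 46.0 and 68.9 in KO_antimiR21. The fall in KO_PBS was -0.81 ± 0.25 (adjusted p = 0.0424), and the inhibitor libraries spanned the range of both other groups. Mrps35, a protein found only in mitochondrial ribosomes, was at 47.7, 47.0 and 58.6 CPM in WT libraries, 27.6, 32.3 and 28.8 in KO_PBS, and 48.5, 30.2 and 43.5 in KO_antimiR21. Its change was -0.79 ± 0.18 (adjusted p = 0.016). Mrps31, also specific to mitochondria, was at 28.5, 29.8 and 23.8 CPM in WT against 15.9, 18.2 and 18.7 in KO_PBS, a change of -0.64 ± 0.19 (adjusted p = 0.039). In the inhibitor group Mrps31 was at 17.0, 18.7 and 26.8 CPM, so here the first library was with the knockout range, unlike its place for Mrps21 and Mrps35.

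Proteins of the core of the small subunit gave a mixed picture. Mrps7, which forms part of the subunit's head, fell from 92.8, 106 and 107 CPM in WT to 65.3, 71.7 and 68.1 in KO_PBS (log2 fold change -0.58 ± 0.18, adjusted p = 0.0446). Mrps12, a protein of the decoding centre, was at 23.4, 23.9 and 25.9 CPM in WT against 18.7, 20.4 and 19.3 in KO_PBS. The groups did not overlap, yet the change of -0.33 ± 0.18 did not pass the test (adjusted p = 0.225). Mrps9, Mrps14 and Mrps23 were the other small-subunit genes that fell.

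In the large subunit, Mrpl12, Mrpl46 and Mrpl28 had the lowest fold changes. Mrpl12 forms the flexible stalk that recruits translation factors. Its values were 225, 224 and 239 CPM in WT, against 112, 140 and 153 in KO_PBS and 191, 138 and 202 in KO_antimiR21, and its fall in KO_PBS was -0.76 ± 0.18 (adjusted p = 0.016). All KO_PBS libraries and the inhibitor library KO_antimiR21 2 lay at or below 153 CPM, while the remaining 2 inhibitor libraries fell short of every WT library.

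Mrpl46, a mitochondria-specific protein, had groups well apart, with 40.1, 37.9 and 45.2 CPM in WT against 24.5, 25.9 and 25.7 in KO_PBS. Its change of -0.70 ± 0.15 had the lowest adjusted p of all members (0.0121), and it was the 1 of the 22 genes that stayed past the threshold whichever of the 9 libraries was left out. In KO_antimiR21 it was at 39.1, 26.9 and 34.0 CPM. Mrpl28, the homolog of bacterial L28, was at 84.2, 79.3 and 93.3 CPM in WT libraries, 54.1, 52.9 and 59.4 in KO_PBS, and 83.2, 57.2 and 69.8 in KO_antimiR21, with a fall of -0.63 ± 0.15 (adjusted p = 0.0177). For both genes the inhibitor libraries ran from at or near the KO_PBS range into the WT range.

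Of 2 core proteins of the large subunit, neither passed. Mrpl3, which lies close to the peptidyl transferase centre, was at 37.4, 34.4 and 30.1 CPM in WT against 26.6, 28.7 and 32.3 in KO_PBS, with overlap (-0.22 ± 0.16, adjusted p = 0.359). Mrpl4, at the wall of the exit tunnel, was at 79.9, 87.0 and 91.1 CPM in WT against 54.6, 66.1 and 65.6 in KO_PBS without overlap (-0.47 ± 0.18, adjusted p = 0.0942). The other large-subunit genes that fell were Mrpl1, Mrpl13, Mrpl18, Mrpl41, Mrpl43, Mrpl44, Mrpl48, Mrpl49, Mrpl51 and Mrps18a. Their log2 fold changes ran from -0.61 to -0.36.

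Mrps36, whose protein is an adaptor in the 2-oxoglutarate dehydrogenase complex of the citric acid cycle, had the fourth lowest fold change of the list. It had 49.95, 55.8 and 54.7 CPM in WT libraries, 26.0, 34.2 and 32.8 in KO_PBS, and 58.0, 32.8 and 54.2 in KO_antimiR21. The fall in KO_PBS was -0.79 ± 0.21 (adjusted p = 0.0269). Leaving this gene out, 21 of 74 ribosomal genes fell.

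At the other end, only 3 genes had a fold change above 0, and none of them passed. Mrpl33, the homolog of bacterial L33, was at 27.2, 29.9 and 35.4 CPM in WT against 51.5, 34.2 and 29.4 in KO_PBS (0.32 ± 0.22, adjusted p = 0.35). Mrpl52, specific to mitochondria, was at 35.7, 32.6 and 46.0 CPM in WT against 59.4, 41.7 and 36.7 in KO_PBS (0.27 ± 0.23, adjusted p = 0.443). In both genes the high mean came from KO_PBS 1, and the other KO_PBS libraries overlapped WT. Mrps18b was at 34.1, 55.8 and 48.0 CPM in WT against 52.6, 44.3 and 47.5 in KO_PBS (0.07 ± 0.18, adjusted p = 0.83), and its value turned to -0.19 with male libraries alone. Mrpl19 was nearly level across all 9 libraries, between 25.3 and 29.99 CPM (-0.04 ± 0.11, adjusted p = 0.82).

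**Figure D2:**
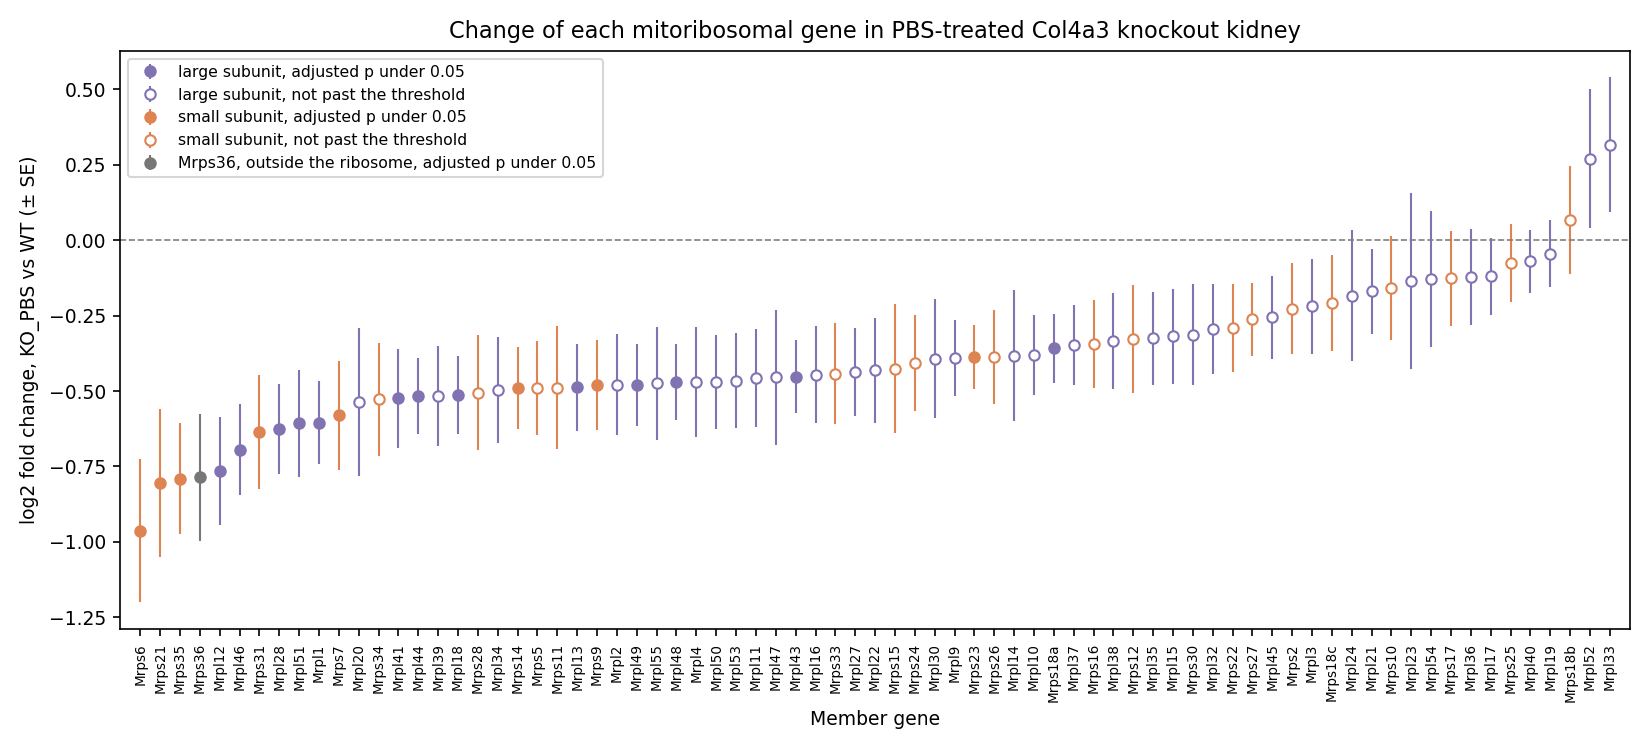
Log2 fold change of each of the 75 genes in KO_PBS against WT with its standard error, ordered from lowest to highest, colored by subunit and filled where the edgeR adjusted p was under 0.05. The values run from -0.96 for Mrps6 to 0.32 for Mrpl33, and all 22 filled points lie below 0.

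**Figure D3:**
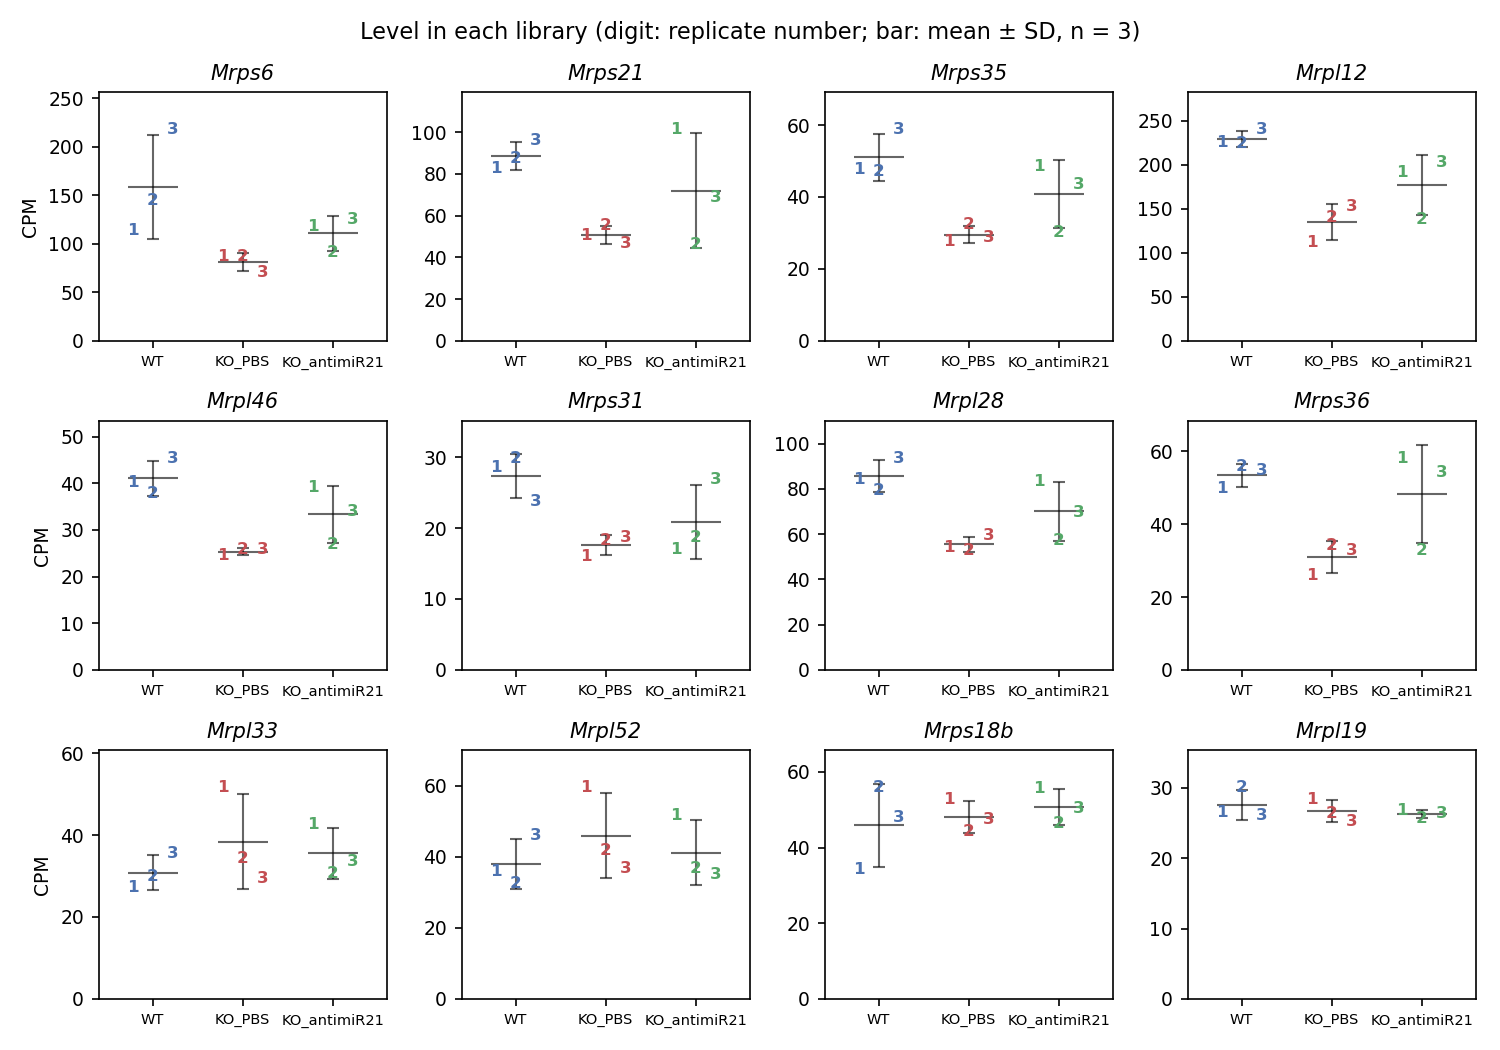
CPM of 12 genes in every library, with each digit giving a replicate number and bars the mean ± SD (n = 3 per group). For Mrpl46 the 3 KO_PBS libraries lie between 24.5 and 25.9 CPM, below all WT libraries, and for Mrpl19 the groups overlap.

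The threshold cut through a dense run of similar values. Mrpl41 (-0.52 ± 0.16, adjusted p = 0.0467) and Mrps18a (-0.36 ± 0.11, adjusted p = 0.0495) were the last genes inside it, and Mrps5 (-0.49 ± 0.16, adjusted p = 0.0502) and Mrpl39 (-0.52 ± 0.17, adjusted p = 0.0508) the first outside. At an unadjusted p under 0.05 in edgeR, 44 of the 75 were lower and 0 higher. The share of all genes at that cut-off was not worked out, so the 44 has no background to be read against.

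The 2 subunits had similar values. In the large subunit 13 of 48 genes fell with a median log2 fold change of -0.43, and in the small subunit 8 of 26 fell with a median of -0.42. Genes with a bacterial homolog (10 of 46 fell, median -0.43) and genes specific to mitochondria (11 of 28 fell, median -0.41) had similar medians, and no test of a difference was made. Per kilobase of the longest coding transcript, WT levels ran from 5.06 ± 1.06 CPM (SD, n = 3) for Mrpl47 to 187 ± 62.9 for Mrps6, with Mrps21 at 182 and Mrpl12 at 174, and a median of 34.5 CPM per kilobase over the 75 genes. These 3 most abundant messages per kilobase were all among the 5 genes with the lowest fold changes. The next by this measure were Mrpl20, Mrpl54 and Mrpl52 (87.0, 85.3 and 82.3). They changed by -0.54, -0.13 and 0.27, and none passed. The WT level enters both the abundance and the fold change, and no link between them was tested.

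The count of genes past the threshold rested on single libraries, while the direction did not. Without KO_PBS 1, 2 or 3 the count was 2, 4 or 6, and without WT 1, 2 or 3 it was 5, 7 or 8. Of all genes, 3.8%, 4.4% and 6.47% fell in the first 3 of these fits and 5.52%, 6.93% and 5.56% in the other 3, so the members' count was near the background without KO_PBS 1, 2 or 3 or without WT 1. KO_antimiR21 2 is in neither group compared, but it enters the filter, the scaling and the shared estimate of spread. Without it 38 members passed, against 10.6% of all genes. All 22 genes had a fold change below 0 in each of 22 other fits, and so did 56 of the 75. The 22 were picked for their fall and the fits share libraries, so the sign of these genes was largely set by that choice. With 1 library left out, 70 to 73 of the 75 were below 0.

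The sex of the WT libraries moved with genotype. With male libraries alone (1 WT, 3 KO_PBS), or with sex as a term, 0 members and 0% of all genes passed, and the medians were -0.40 and -0.43. The male WT library lay above all KO_PBS libraries in 68 of 75 genes, against 35.8% of all genes, and both female WT libraries did so in 56, against 24.8%. Library code gave a median of -0.39 and 6 genes past the threshold when it was a term, where 6.21% of all genes fell. Among libraries of code L4 alone, the library medians were -0.09, 0.00 and 0.09 in WT and -0.41 and -0.39 in KO_PBS.

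The size of the fall also depended on the scale. TMM factors were 0.894 to 0.927 in WT and 1.08 to 1.15 in KO_PBS. As a plain share of all counts, the members took 0.336%, 0.361% and 0.403% in WT and 0.353%, 0.329% and 0.317% in KO_PBS, and these ranges overlapped. With library totals as the sole scaling, 2 members and 5.22% of all genes fell, 56 of 75 were below 0, the members' median was -0.15 and the median of all genes was 0.25. The gap between the members' median and that of all genes was -0.41 with totals and -0.40 with TMM. A change of scale moves all genes by nearly the same amount, so this gap could hardly differ and is no check on the scale.

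Marker genes of kidney cell types moved in the same comparison. Of 18 proximal tubule markers 10 fell (median -1.55, and 3 to 10 with 1 library left out), and their summed level was 25230 to 47031 CPM in WT, 2976 to 12340 in KO_PBS and 8901 to 26808 in KO_antimiR21. Of 11 macrophage markers 10 rose (median 3.48), with sums of 180 to 217, 844 to 1069 and 396 to 837 CPM in the same order. Of 8 myofibroblast markers 8 rose, with sums of 334 to 358, 2398 to 3100 and 695 to 1656 CPM. T cell markers (7 of 8) and cell cycle genes (16 of 16) rose as well, with T cell sums of 10.5 to 11.9 CPM in WT and 23.1 to 29.6 in KO_PBS. Markers of thick ascending limb and distal tubule (5 of 8) and of collecting duct (4 of 8) fell, with medians of -1.57 and -0.80. Of 8 endothelial markers 1 fell (median -0.41), and of 6 podocyte markers 0 fell and 1 rose (median 0.28). No gene of these lists was at 0 in every library. In whole kidney, fewer tubule cells and less mitochondrial ribosome message per cell cannot be told apart, and the part of cell composition in the result was not tested.

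Other genes of mitochondrial translation, from lists set up by role, were lower too. Of 7 mitoribosome proteins with other symbols 2 fell (median -0.41). Dap3, a GTP-binding protein of the small subunit, was at 86.3, 86.5 and 98.0 CPM in WT against 62.6, 61.8 and 60.6 in KO_PBS (-0.55 ± 0.13, adjusted p = 0.0158). Ptcd3, which sits near the messenger RNA entry of the small subunit, was at 57.8, 58.1 and 58.1 CPM in WT against 37.7, 40.8 and 39.3 in KO_PBS (-0.56 ± 0.12, adjusted p = 0.00962). Ict1, a peptide release hydrolase in the large subunit, did not pass (-0.54 ± 0.18, adjusted p = 0.0569).

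Of 11 translation factors 4 fell (median -0.55). Tufm, the elongation factor that brings transfer RNA to the ribosome, was at 196, 212 and 202 CPM in WT against 103, 126 and 137 in KO_PBS (-0.74 ± 0.18). Gfm2, which recycles ribosomes after release, changed by -0.82 ± 0.19 and the initiation factor Mtif3 by -0.64 ± 0.16. Of 19 aminoacyl-tRNA synthetases and amidotransferase subunits 5 fell (median -0.34), led by Pet112l at -1.15 ± 0.24, with Fars2 at -0.56 ± 0.13 and Qrsl1 at -0.50 ± 0.13. Pet112l and Qrsl1 encode subunits of the enzyme that makes glutaminyl-tRNA in mitochondria.

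Of 18 factors for ribosome assembly and rRNA modification 3 fell (median -0.36), namely the GTPases Gtpbp10 (-0.66 ± 0.17) and Mtg1 (-0.53 ± 0.16) and the methyltransferase Ftsj2 (-0.62 ± 0.17). Of 16 genes for mitochondrial DNA maintenance and transcription 3 fell (median -0.43). These were the topoisomerase Top1mt (-0.59 ± 0.13), Hsd17b10, a subunit of the RNase P that cuts mitochondrial transcripts (-0.78 ± 0.18), and Tfam, which packages mitochondrial DNA (-0.55 ± 0.16). The share of genes past the threshold in each of these lists was between 16.7% and 36.4%, and for the 75 members it was 29.3%. With 1 library left out, the counts ran from 1 to 3 for the proteins with other symbols, 0 to 4 for translation factors, 1 to 5 for synthetases, 0 to 5 for assembly factors and 1 to 4 for mitochondrial DNA genes.

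Most nuclear subunits of the respiratory chain were lower, while the cytosolic ribosomal proteins had a median above 0. Of 35 nuclear complex I subunits 29 fell (median -0.92), and of 23 subunits of complexes IV and V 20 fell (median -0.88), and with 1 library left out these counts ran from 14 to 35 and from 5 to 21. Of 80 cytosolic ribosomal protein genes 0 fell and 0 rose by edgeR, 7 were below 0, and the median was 0.26. Without KO_PBS 1 the median was 0.034, with 31 below 0, and over all 9 fits with 1 library left out it ran from 0.034 to 0.39. At an unadjusted p under 0.05, 8 were higher and 0 lower, without a share of all genes worked out for that cut-off. After adjustment DESeq2 called 4 higher, limma 2, and edgeR with library totals 11. Of all genes, these fits called 27.0%, 24.6% and 26.9% in either direction, with 11.8%, 9.79% and 5.22% lower. These counts are therefore no sign of a rise particular to the list. No test compared the lists with each other. The mitochondrial gene mt-Nd4, whose protein is made on the mitochondrial ribosome and which was chosen after its values were seen, was at 16400, 16256 and 14160 CPM in WT libraries, 4384, 8374 and 6872 in KO_PBS, and 14056, 7272 and 14758 in KO_antimiR21. Its change in KO_PBS was -1.25 ± 0.35 (adjusted p = 0.0325), and this call was lost when KO_PBS 1, 2 or 3 or WT 1, 2 or 3 was left out (adjusted p = 0.0523 to 0.0863).

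**Figure D4:**
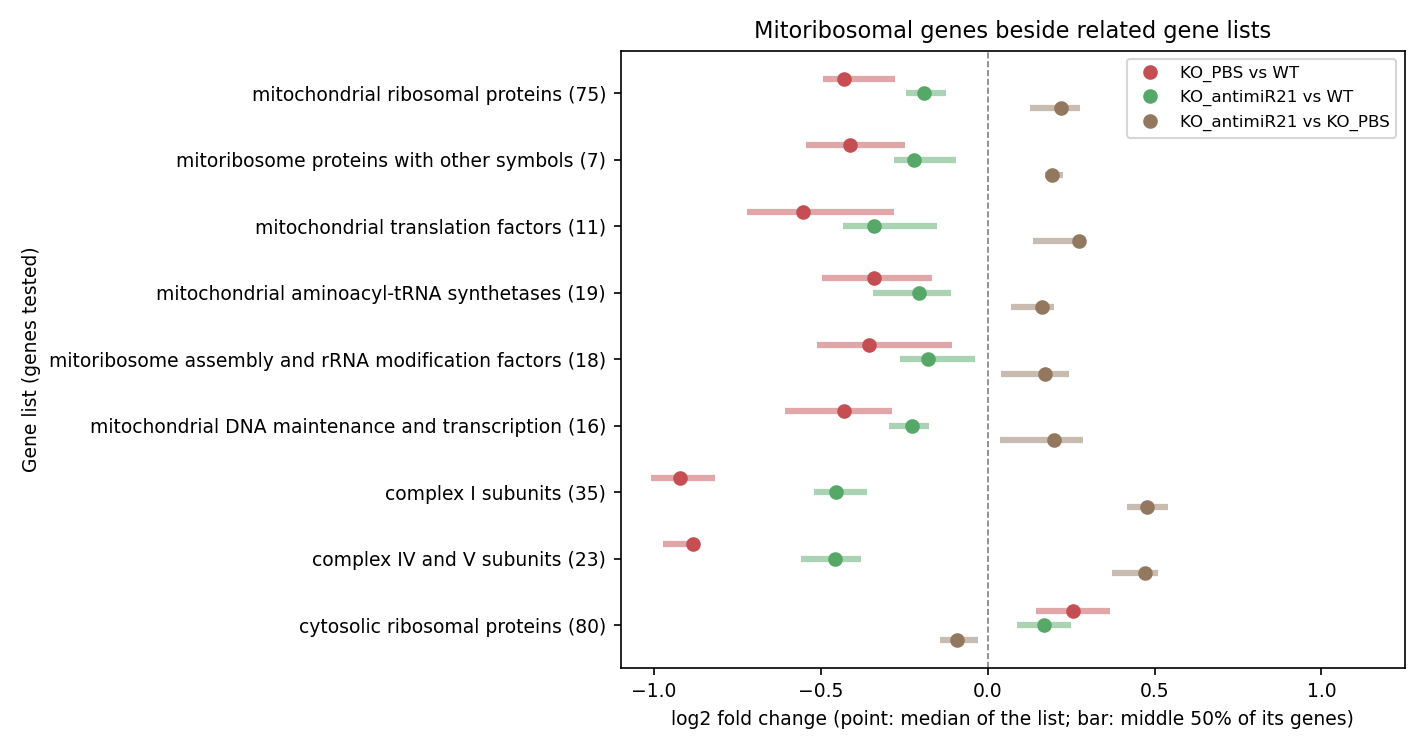
Median log2 fold change (points) and middle 50% (bars) of 9 gene lists in the 3 comparisons, with the number of genes tested in parentheses. In KO_PBS against WT the 75 mitochondrial ribosomal genes have a median of -0.43, complex I subunits -0.92 and cytosolic ribosomal proteins 0.26.

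Among 13 regulators of nuclear genes for mitochondria, 1 fell and 1 rose, with a median of -0.19 that became 0.09 with library totals as the sole scaling. It was 0.059 with male libraries alone, 0.033 with sex as a term, and -0.26 to -0.0029 with 1 library left out, so its sign was not stable. Esrra, a nuclear receptor that activates genes of oxidative metabolism, was at 147, 129 and 150 CPM in WT against 66.5, 77.8 and 88.5 in KO_PBS (-0.88 ± 0.17, adjusted p = 0.00729). Myc, a growth regulator, was at 4.81, 6.34 and 5.83 CPM in WT against 56.7, 48.6 and 29.8 in KO_PBS (2.99 ± 0.28, adjusted p = 0.00135). Gabpa, a subunit of an ETS-family activator, did not pass (-0.37 ± 0.19, adjusted p = 0.203), nor did Ppargc1a, a coactivator of mitochondrial biogenesis (-0.99 ± 0.61, adjusted p = 0.28). Gabpa and Ppargc1a were named as a check or after their values were seen.

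With inhibitor, no member was called in either comparison, and the 3 libraries differed from each other. In KO_antimiR21 against KO_PBS, 0 of 75 genes passed in either direction by edgeR, as did 0% of all 17315 genes. The fold change was above 0 in 71 of the 75, with a median of 0.22 (range -0.16 to 0.64) against -0.01 over all genes, and adjusted p ran from 0.707 to 0.998. Of all genes, 51.93% were below 0. At an unadjusted p under 0.05, 5 were higher and 0 lower, against 3.57% of all genes higher. That 5 became 0 without KO_antimiR21 1, 44 without KO_antimiR21 2 and 1 without KO_antimiR21 3. The share of all genes at the unadjusted cut-off was not worked out for these fits. Without KO_antimiR21 2, 0% of all genes passed after adjustment, and the lowest adjusted p of a member was 0.134. By DESeq2 and limma also 0 passed after adjustment. All 3 inhibitor libraries lay above all KO_PBS libraries in 8 genes (Mrpl1, Mrpl9, Mrpl18, Mrpl27, Mrpl40, Mrpl46, Mrpl48 and Mrps6), against 3.83% of all genes.

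The members with the lowest p in that comparison were Mrps36 (0.64 ± 0.21), Mrpl46 (0.39 ± 0.15), Mrps35 (0.46 ± 0.18) and Mrpl48 (0.31 ± 0.13), each with an adjusted p of 0.707. Mrpl48, specific to mitochondria, was at 37.4, 35.4 and 37.8 CPM in KO_PBS, 50.8, 39.8 and 46.4 in KO_antimiR21, and 50.1, 47.0 and 56.2 in WT. Its inhibitor libraries thus lay above KO_PBS, with KO_antimiR21 2 the lowest of them.

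The size of the difference depended on KO_antimiR21 1 and 2. KO_antimiR21 1 lay above all KO_PBS libraries in 66 members and KO_antimiR21 3 in 61, while KO_antimiR21 2 did so in 10. The same shares over all genes were 30.2%, 31.4% and 17.9%. Conversely, KO_antimiR21 2 lay below all WT libraries in 68 members, KO_antimiR21 3 in 34 and KO_antimiR21 1 in 18. Over all genes these shares were 31.7%, 21.1% and 34.2%, so KO_antimiR21 1 had fewer members below WT than its share of all genes gives. The median of 0.22 became 0.37 without KO_antimiR21 2 and 0.11 without KO_antimiR21 1. KO_antimiR21 2 also had the lowest proximal tubule sum of its group (8901 CPM, with 22270 and 26808 in the others). Its macrophage sum was the highest (837 CPM, with 701 and 396). Other lists were ordered differently. KO_antimiR21 1 had the lowest sum of thick ascending limb and distal tubule markers (4127 CPM, with 5935 in KO_antimiR21 2 and 7201 in KO_antimiR21 3). It also had the highest myofibroblast sum (1656 CPM, with 1488 and 695). The part of these in the result was not tested.

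**Figure D5:**
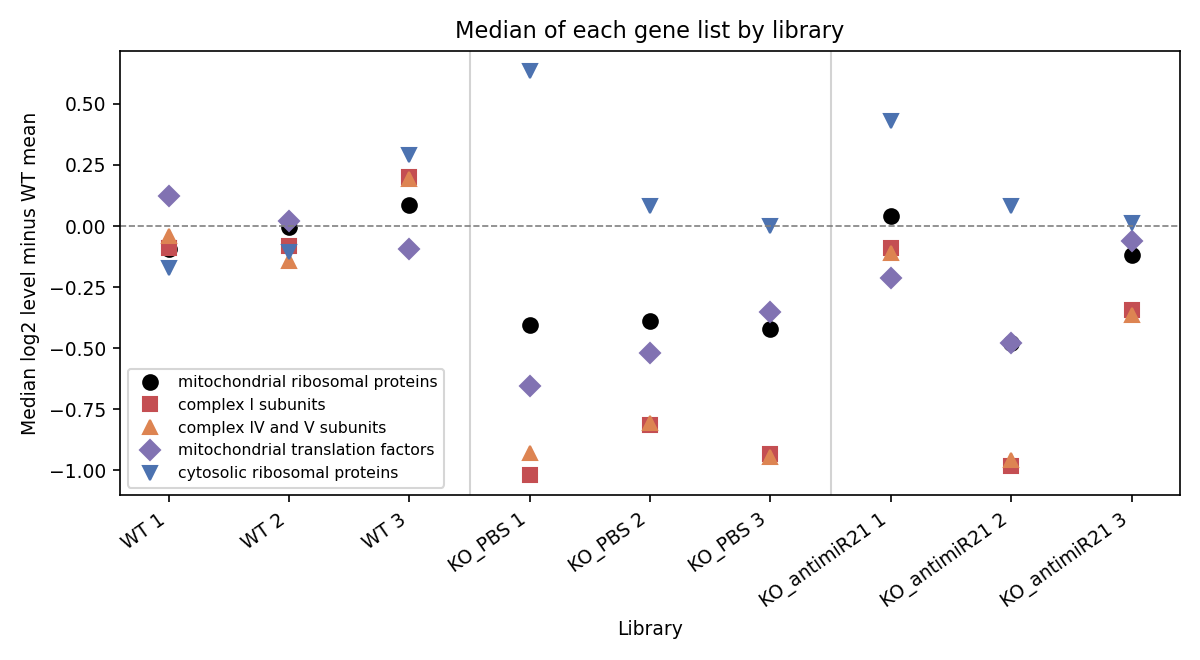
Median log2 level of 5 gene lists in each library, relative to the WT mean. In KO_antimiR21 2 the mitochondrial ribosomal genes (-0.48) and complex I subunits (-0.98) lie with the KO_PBS libraries, while in KO_antimiR21 1 they lie at 0.04 and -0.09.

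Against WT, the inhibitor group had 0 members past the threshold by edgeR, where 0.427% of all genes fell. The fold change was below 0 in 68 of 75 and in 54.19% of all genes, with a median of -0.19 and -0.04 over all genes. The median was -0.29 without KO_antimiR21 1 and -0.04 without KO_antimiR21 2. At an unadjusted p under 0.05, 4 were lower, against 6.78% of all genes. DESeq2 called 1 member, where it put 2.0% of all genes lower, and limma called 0. All inhibitor libraries lay below all WT libraries in 10 members, a share close to the 9.83% of all genes. Both comparisons of the inhibitor group share libraries with that of KO_PBS against WT, so they are not independent of it.

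The 4 members with the lowest p against WT were Mrpl43, Mrpl44, Mrps23 and Mrpl34. Mrpl43, specific to mitochondria, was at 47.7, 47.4 and 49.6 CPM in WT libraries, 34.9, 36.5 and 34.2 in KO_PBS and 40.8, 31.7 and 39.4 in KO_antimiR21, so all 6 knockout libraries were below WT (-0.37 ± 0.12 for the inhibitor group, adjusted p = 0.117). Mrpl44, which carries a ribonuclease III-like fold, was at 44.9, 44.9 and 38.8 CPM in WT libraries, 27.9, 30.4 and 31.6 in KO_PBS and 32.2, 30.2 and 37.3 in KO_antimiR21 (-0.37 ± 0.13, adjusted p = 0.137). Mrps23 changed by -0.27 ± 0.11 and Mrpl34, the homolog of bacterial L34, by -0.42 ± 0.18 (adjusted p = 0.192 and 0.224).

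In WT 3, KO_PBS 1 and KO_antimiR21 1 the cytosolic ribosomal protein genes had medians of 0.29, 0.63 and 0.43 relative to the WT mean. As a description across the 75 members, which share libraries, the departure of WT 3 from WT 1 and 2 had a Spearman rho of -0.40 with transcript length and 0.36 with GC content. That of KO_antimiR21 1 from its group had -0.45 and 0.41, so short messages were relatively high in both. For KO_PBS 1 these values were nearer 0, at -0.17 and -0.022. The fold change in KO_PBS had a rho of 0.09 with length and -0.13 with GC content.

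The promoters were looked at because the members moved together. RefSeq windows of 250 bases before to 50 after the start (GRCm38.p6, a later build than the mm9 of the counts) were found for 66 of the 75. The letters CCGGAAG, a core bound by ETS-family factors such as GABP, were found on either strand in 24 of 66 windows (36.4%), against 17.1% of 9178 other tested genes and 9.93% of all promoters of that length. GCATGCGC, a core of the NRF1 site, was in 8 (12.1% against 5.45% and 3.05%), and AAGATGGCG, a core of the YY1 site, in 7 (10.6% against 3.11% and 1.64%). GGGCGG, bound by SP1, was in 32 (48.5% against 66.1% and 38.2%), TATAAA in 5 (7.58% against 9.65% and 15.7%) and CCAAT in 26 (39.4% against 42.2% and 41.1%). Among the 20 of the 22 genes that fell and had a window, 7 held the ETS letters, 0 the NRF1 letters and 1 the YY1 letters, and no test of a difference was made. The 3 stretches shown are the 100 bases before the start of genes that fell and hold the ETS letters there, in capitals, on the strand of the gene. Genes with more than a single window or on some chromosomes were passed over, so these need not be all such genes. They are examples, and no link between the letters and the fall was tested. They lie at chr6:125192100-125192199 (plus strand), chr19:45006443-45006542 (minus) and chr17:46110904-46111003 (plus).
Mrpl51: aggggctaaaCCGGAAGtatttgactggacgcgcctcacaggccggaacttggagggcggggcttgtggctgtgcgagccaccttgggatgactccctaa
Mrpl43: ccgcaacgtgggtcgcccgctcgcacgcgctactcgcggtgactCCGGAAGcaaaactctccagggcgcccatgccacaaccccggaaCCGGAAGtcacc
Mrps18a: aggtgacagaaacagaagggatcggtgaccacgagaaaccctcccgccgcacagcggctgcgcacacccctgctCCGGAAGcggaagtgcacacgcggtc
The match begins 90 bases before the start in Mrpl51, 56 and 12 bases before it in Mrpl43, and 26 bases before it in Mrps18a.

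Many of these genes start back to back with another gene. A neighbour that starts within 1000 bases on the other strand was found for 25 of the 66 (37.9%), against 17.1% of other tested genes. Leaving out 1 pair in which both genes are members, 18 such neighbours were tested, of which 2 fell and 2 rose in KO_PBS, beside the 9.85% and 14.6% of all genes. Their median log2 fold change was -0.012, and that of the members beside them was -0.45. In the pair of members, Mrpl46 and Mrps11, the homolog of bacterial S11, start 42 bases apart on chr7, and Mrps11 was at 26.0, 24.6 and 32.7 CPM in WT against 18.9, 18.7 and 21.7 in KO_PBS (-0.49 ± 0.20, adjusted p = 0.115). Mrpl27 starts 48 bases from Eme1, a subunit of a DNA endonuclease, and here the neighbours went different ways. Mrpl27 was at 53.7, 54.3 and 67.4 CPM in WT against 42.9, 42.8 and 43.8 in KO_PBS (-0.44 ± 0.15, adjusted p = 0.0592), while Eme1 rose from 0.253, 0.481 and 0.161 CPM to 1.86, 1.47 and 1.55 (2.43 ± 0.41, adjusted p = 0.00404). The stretches between the starts, at chr7:78783090-78783130 and chr11:94653744-94653790, are given on the plus strand because they serve both genes of a pair. Of the 6 sets of letters searched, the first holds GGGCGG, in capitals, and the second holds none.
Mrps11 and Mrpl46: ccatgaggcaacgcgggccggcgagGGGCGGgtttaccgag
Mrpl27 and Eme1: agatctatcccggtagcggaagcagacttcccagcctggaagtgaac

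In 2 further pairs the neighbours that passed were Ndufb5, a complex I subunit beside Mrpl47 (-1.02 ± 0.19, adjusted p = 0.00641), and Ncapd2, a condensin subunit beside Mrpl51 (1.06 ± 0.15, adjusted p = 0.00214). Mrpl51 itself was at 97.2, 103 and 119 CPM in WT against 72.3, 71.2 and 65.6 in KO_PBS (-0.61 ± 0.18, adjusted p = 0.0366). Ptcd2, beside Mrps27, was lower too (-0.45 ± 0.13, adjusted p = 0.0343). These neighbours were named after their values were seen. Exons of 32 members overlap those of another gene, 27 of them on the other strand. Among the latter are Mrpl46 with Mrps11, Mrpl27 with Eme1, and Mrpl47 with Ndufb5. Strand was not given for the counting, so reads of such genes could be shared. The 43 members without overlap gave 11 genes that fell and a median of -0.43, as over the whole list.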

How the data were processed

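Each of the 9 whole-kidney libraries has a table, deposited by the authors, of the expected counts of each gene symbol, made with Bowtie and RSEM on mm9, per the submitters' processing notes. A matrix of log2 values for the same libraries was deposited by the authors, whose notes name limma. The strand setting is not given in the sources used here, nor are versions or annotation. RNA was taken up with the miREASY kit and 150 ng went into TruSeq v2 libraries, per the labels' protocols.

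The expected counts were rounded and filtered with filterByExpr. All libraries entered 1 edgeR quasi-likelihood fit of 3 group means with TMM scaling, with two-sided tests and Benjamini-Hochberg adjustment over all 17315 genes of a comparison. Every adjusted p is edgeR's, with a threshold of 0.05, unless another tool is named. Fold changes are log2 estimates ± SE. Alternatives were DESeq2, limma on the log2 matrix, other scalings and filters, sex or library code as a term, and each library left out. The test was also run on simulated counts with known changes in a small share of genes. Those counts held no differences of sex, library code or cell composition, so the run cannot speak for such effects here. Replicates of a group differed by far more than sampling noise. Library depth, given with the results, limits only counting error.

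The members and lists were chosen with earlier results of these data known. The text names the 8 genes past the threshold with the lowest fold change and the 4 highest. It also names the 4 with the lowest p in each other comparison, 6 chosen by role and those next to the threshold. From the lists of mitochondrial gene expression it takes the 3 with the lowest p, except Pprc1 of the regulators, which is not described. Neighbours and genes said to be chosen later come besides. Sex was called from the sum of 4 Y-linked genes, with 10 CPM or more counted as male. Transcript lengths and overlaps came from GENCODE M21 and promoters from RefSeq, both on GRCm38. Motifs were searched on both strands. The work used Python 3.11.15 with numpy 2.4.6, pandas 2.3.3 and matplotlib 3.10.9, besides DESeq2 1.42.0, limma 3.58.1 and edgeR 4.0.16 in R 4.3.3.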

Additional observations from a re-analysis of the deposited data

How the results depend on the processing

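The number of members lower in KO_PBS than in WT was 22 as reported and ran from 2 to 38 when 1 library was left out, while 3.8% to 10.6% of all genes fell (9.85% as reported). It was 6 with library code as a term (6.21% of all genes), 2 with library totals as the sole scaling (5.22%), 12 with upper-quartile scaling, 34 with the KO_PBS and WT libraries fitted alone, and 0 with male libraries only or with sex as a term, where no gene of any kind passed. DESeq2 gave 30 (11.8% of all genes fell), relative log expression factors 23 (9.89%) and limma on the deposited matrix 21 (9.79%). It was 17 without a low-count filter (6.87%) and 16 with a minimum of 1 CPM (9.77%). Adding the 7 upper-case copies of member symbols, an alternative chosen after seeing the data, gave 22 (9.85%). Of all genes, 8.35% fell with upper-quartile scaling and 10.1% with the KO_PBS and WT libraries fitted alone. In none of the 22 other fits was a member higher. The members' median log2 fold change was -0.15 with library totals. DESeq2 put 1 member lower in KO_antimiR21 than in WT, where 2.0% of all genes were lower. The causes of these shifts were not tested.

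With the replicate number as a block, 8 members and 6.52% of all genes were lower. Same-numbered libraries of WT and KO_PBS had deviations correlated at -0.30, 0.16 and -0.31. Those of KO_antimiR21 and KO_PBS were at 0.40, -0.07 and 0.11, and those of KO_antimiR21 and WT at -0.22, 0.04 and -0.19. With 3 libraries per group these values cannot settle whether the numbers pair the samples, and the reported fit used no pairing.

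Genes near 0 changed sign. Mrps18b was -0.19 with male libraries, -0.21 with sex as a term, and -0.086 to 0.25 with 1 library left out. Mrpl19 was 0.24 with library totals, 0.020 with upper-quartile scaling, and -0.11 to 0.040 with 1 library left out. Mrpl3 was 0.061 with library totals. Mrps36 in KO_antimiR21 against WT was -0.30 to 0.086 with 1 library left out.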
